A study of Homo sapiens with 12 samples.

Results

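The DNA replication machinery was read in U2OS cells, a human osteosarcoma line, from 41 genes chosen by name for 9 roles in copying DNA, out of 20045 genes with a probe on the array. Each gene was read from its brightest detected probe. Of the 41 genes, 40 were tested, and the exception was GINS1, a subunit of the GINS complex, whose probe was detected on 2 of 12 arrays. The study treated the cells with ST362 or MEB55, both synthetic analogues of strigolactones, which are plant hormones. The groups were vehicle (acetone alone), ST362 at 5 ppm and MEB55 at 5 ppm, each for 6 h or 24 h, with 2 Illumina bead arrays per group and 12 in all. All groups share the cell line and the acetone solvent. The same mass of each analogue was used, not the same molarity, and each condition rests on 1 cell line. The labels number the replicates, and the legend of the study calls them 2 independent experiments at 6 h, so for 24 h the p-values measure the spread between these samples, which may be technical.

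To copy its genome, a cell first marks origins with the origin recognition complex, on which CDC6 and CDT1 load the ring-shaped MCM helicase. In S phase, CDC45, the GINS complex and MCM10 turn the loaded ring into a moving helicase. Polymerase alpha-primase lays primers, polymerases delta and epsilon extend them while held by the PCNA clamp, and FEN1 and LIG1 join the lagging-strand pieces. Ribonucleotide reductase, thymidylate synthase, thymidine kinase and dUTPase supply the nucleotides. Many of these genes are transcribed at the border of G1 and S phase by E2F factors, which is the reason for setting their promoters beside the levels.

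Between 42.7% and 47.4% of 47313 probes were detected on an array, and vehicle 6 h replicate 1 was the brightest array, with a 75th percentile of 149.3 where the other 11 had 115.1 to 125.4. Of 7 bone and mesenchymal markers, 5 were detected on all 12 arrays (VIM, COL1A1, SPARC, ALPL and CDH11). Of 4 epithelial markers EPCAM alone was detected on all 12, and no leukocyte or endothelial marker was. The replicates of an analogue were less alike than arrays of different time labels. Each ST362 or MEB55 array correlated with its own partner at 0.971 to 0.977 across probes, and with an array of the same analogue and the other time at 0.986 to 0.989. HSPA6, a heat shock protein gene, separated the same arrays. Its log2 level above the vehicle mean was 5.95 and 0.44 on ST362 6 h replicates 1 and 2, 0.20 and 6.51 on ST362 24 h replicates 1 and 2, 6.45 and 1.06 on the MEB55 6 h arrays, and 0.25 and 7.99 on the MEB55 24 h arrays. Time comparisons and the spread within groups therefore rest on arrays that do not sort by their time label. Results are given for the 6 labelled groups, for the 3 treatments over both times, and for single arrays.

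RefSeq promoters (GRCh38.p14) were at hand for 35 of the 41 genes, as 47 entries, and the 250 bases before the annotated start were searched on both strands. The words searched for E2F were TTTGGCGC, TTTCGCGC, TTTCCCGC and TTTGCCGC, and 13 of the 35 genes (37.1%) held at least 1 of them, against 3.4% of 27305 genes with an entry. The NF-Y word CCAAT was found for 21 of the 35 genes (60%, against 37%), and the SP1 word GGGCGG for 26 (74.3%, against 46.2%). A match is a description of letters, and a missing match says only that these letters are not in this window. Shown here are 5 promoters of genes named in the results, picked by hand, with E2F words in capitals. They do not stand for the 35 genes, and the windows of RFC4 and RRM2, not shown, held none of these words. A relation of the words to the levels was not tested. MCM6 held 4 matches, since TTTGGCGC on the forward strand and TTTCGCGC on the reverse strand overlap in the same 12 bases at 2 places.
MCM6, chr2:135876444-135876693, minus strand: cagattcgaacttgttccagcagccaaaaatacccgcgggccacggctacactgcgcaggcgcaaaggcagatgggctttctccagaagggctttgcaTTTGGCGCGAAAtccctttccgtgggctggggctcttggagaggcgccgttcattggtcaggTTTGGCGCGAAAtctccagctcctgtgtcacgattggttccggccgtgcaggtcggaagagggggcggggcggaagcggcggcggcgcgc
POLA2, chr11:65261712-65261961, plus strand: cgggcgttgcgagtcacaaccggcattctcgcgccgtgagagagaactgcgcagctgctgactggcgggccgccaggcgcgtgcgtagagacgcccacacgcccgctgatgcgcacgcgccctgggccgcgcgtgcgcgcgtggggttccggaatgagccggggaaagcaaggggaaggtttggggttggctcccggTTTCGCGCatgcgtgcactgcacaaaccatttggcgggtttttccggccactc
PCNA, chr20:5126623-5126872, minus strand: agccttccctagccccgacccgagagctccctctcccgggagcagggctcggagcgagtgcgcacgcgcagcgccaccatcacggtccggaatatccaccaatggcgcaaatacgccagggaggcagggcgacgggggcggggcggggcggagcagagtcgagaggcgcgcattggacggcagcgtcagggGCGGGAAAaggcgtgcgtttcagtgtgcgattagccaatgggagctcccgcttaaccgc
MCM10, chr10:13161308-13161557, plus strand: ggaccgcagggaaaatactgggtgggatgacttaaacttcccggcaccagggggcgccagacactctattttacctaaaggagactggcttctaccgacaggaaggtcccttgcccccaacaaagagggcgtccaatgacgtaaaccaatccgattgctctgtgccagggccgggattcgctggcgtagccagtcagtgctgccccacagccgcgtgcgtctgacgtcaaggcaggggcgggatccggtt
CDC6, chr17:40287629-40287878, plus strand: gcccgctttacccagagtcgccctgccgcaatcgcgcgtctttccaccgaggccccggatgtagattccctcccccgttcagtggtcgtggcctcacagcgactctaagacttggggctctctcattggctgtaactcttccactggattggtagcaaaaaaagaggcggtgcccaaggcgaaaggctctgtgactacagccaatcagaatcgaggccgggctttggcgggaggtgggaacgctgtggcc
The nearest match lay 78 bases before the start of MCM6, 45 before that of POLA2 and 51 before that of PCNA. The windows of MCM10 and CDC6 held none of the E2F words. Both held CCAAT, with 2 copies before MCM10 and 3 before CDC6.

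With ST362, 38 of the 40 genes had a log2 difference from vehicle below 0 over both times, with a median of -0.30 and a range from -0.91 (RRM2) to 0.07 (RPA3). With MEB55 the count was 36 of 40 and the median -0.15, from -0.42 (TK1) to 0.42 (CDC6). The medians over all 12290 tested genes were -0.01 for both analogues. The test was limma's, with p-values adjusted by Benjamini-Hochberg over 22186 probes and a threshold of 0.05, and none of the 40 genes passed it with either analogue, where 0.765% of all genes passed with ST362 and 0.561% with MEB55. At an unadjusted p under 0.05, 12 of the 40 genes (30%) were lower with ST362, against 7.73% of all genes, and none was higher, where 7.77% of all genes were. They were MCM4, MCM6, MCM7, CDC45, MCM10, POLA2, POLE2, PCNA, RFC4, RPA1, FEN1 and RRM2. With MEB55, 4 of the 40 genes (10%) were lower at that threshold, against 6.31% of all genes, namely MCM7, PCNA, RPA1 and FEN1. CDC6 alone was higher, which is 2.5% of the 40 genes, below the 5.92% of all genes. These levels are of bulk RNA, in which fewer cells in S phase and less of each RNA per cell cannot be told apart.

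**Figure D1:**
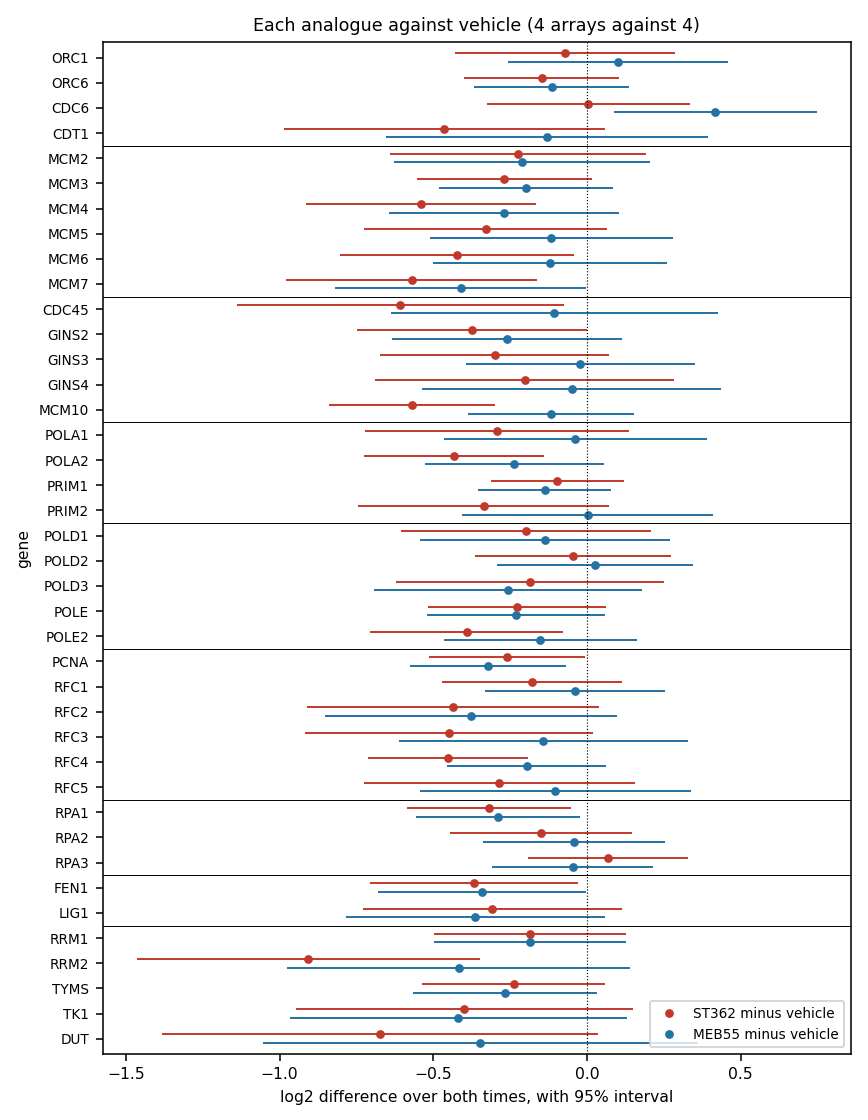
Log2 difference of each of 40 replication genes from vehicle over both times (x axis) with its 95% interval, for ST362 (red) and MEB55 (blue), 4 arrays against 4. Points lie mostly left of 0, with a median of -0.30 for ST362 and -0.15 for MEB55, and CDC6 with MEB55 stands at 0.42.

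The ST362 difference was carried mainly by 2 of its 4 arrays. Against the mean of the 4 vehicle arrays, the median over the 40 genes was -0.01 on ST362 6 h replicate 1, -0.48 on 6 h replicate 2, -0.58 on 24 h replicate 1 and -0.12 on 24 h replicate 2. The corresponding MEB55 medians were -0.13, -0.18, -0.20 and -0.11, and the vehicle medians -0.08, 0.11, -0.03 and 0.03. The MEB55 medians thus lay close together below 0, and the ST362 medians spread more widely, with 2 of them lower than any MEB55 median. Below every vehicle array lay 7, 35, 38 and 13 of the 40 genes on the 4 ST362 arrays in that order, and 13, 20, 15 and 17 on the 4 MEB55 arrays. Of all genes, 22.4% to 29.1% lay below every vehicle array on an analogue array. On the 4 vehicle arrays, 18, 7, 7 and 8 of the 40 genes lay below every other vehicle array, a comparison with fewer arrays. For all genes these shares were 20.3% to 28.4%. The highest of these vehicle counts, on 6 h replicate 1, lay within the range of the MEB55 counts. For 21 of the 40 genes the 2 lowest of the 12 arrays were ST362 6 h replicate 2 and ST362 24 h replicate 1, a pair named after its values were seen, and this held for 6.4% of all genes. RPA3 had its lowest value on a vehicle array and an MEB55 array alike, and none of the other 39 genes had its lowest value on a vehicle array. Of all genes, 9.04%, 9.02%, 6.16% and 5.63% had their lowest value on the 4 vehicle arrays. ST362 6 h replicate 2 and 24 h replicate 1 were also the ST362 arrays with the low HSPA6 levels given above. DDIT3, a stress-response transcription factor, was 0.17 and 0.26 above the vehicle mean on them. On the other ST362 arrays it was 1.99 and 3.03 above that mean. CDKN1A, the p21 inhibitor of cyclin-dependent kinases, was 0.97, 0.62, 0.81 and -0.02 from the vehicle mean on the 4 ST362 arrays. On the 4 vehicle arrays it was -0.24, 0.66, -0.36 and -0.05, so ST362 6 h replicate 2 and 24 h replicate 2 lay within their range. The part of these differences between arrays in the replication genes was not tested.

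**Figure D2:**
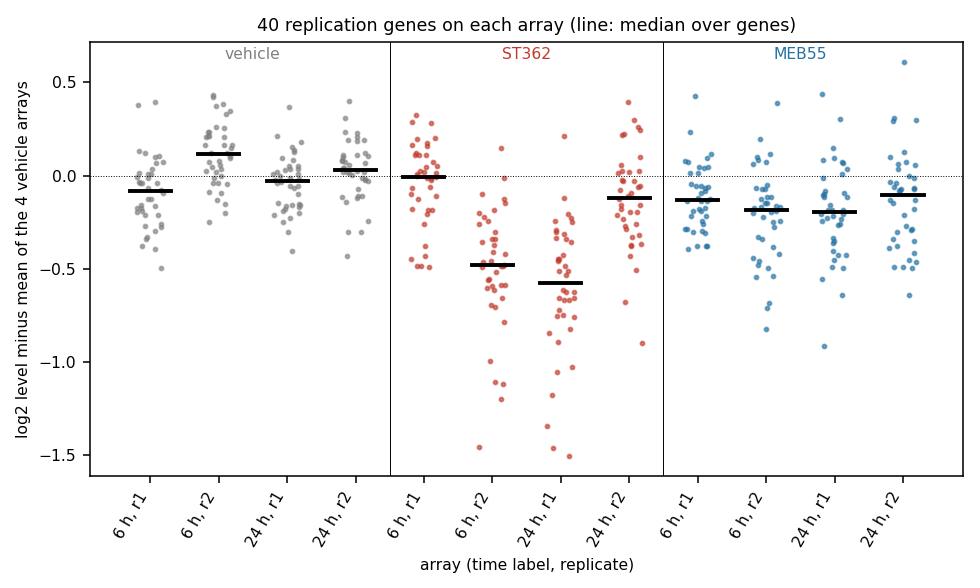
Log2 level of 40 replication genes minus each gene's mean over the 4 vehicle arrays (y axis) on each of the 12 arrays (x axis, r1 and r2 are replicates). Each point is a gene and each line the median. The medians of ST362 6 h replicate 2 (-0.48) and ST362 24 h replicate 1 (-0.58) stand lowest.

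The spread of the replication genes was accordingly wide with ST362. The median range over 4 arrays was 0.67 with ST362, 0.40 with MEB55 and 0.38 with vehicle, where the medians over all genes were 0.49, 0.48 and 0.42. In 33 of the 40 genes the ST362 range was wider than the vehicle range, and in 17 of 40 the MEB55 range was, while for all genes these shares were 59.7% and 59%.

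At the labelled times the same order of medians appeared. For ST362 the median difference from vehicle was -0.22 at 6 h and -0.38 at 24 h, and for MEB55 -0.17 and -0.19. No gene of the array passed in any of these 4 comparisons (0% of all genes). At an unadjusted p under 0.05, 5 replication genes were lower with ST362 at 6 h (MCM10, RFC2, RFC3, RFC4 and RRM2), against 2.70% of all genes, and 5 at 24 h (MCM4, MCM7, MCM10, POLA2 and PRIM2), against 5.00%. With MEB55 the count was 0 at 6 h, against 2.44%, and 1 at 24 h (FEN1), against 3.08%. Only MCM10 was in both ST362 counts, with a difference of -0.44 (SE 0.18, adjusted p 0.847, limma) at 6 h, and at 24 h of -0.70 (SE 0.18) with an adjusted p of 0.525. These medians depended on single arrays. At 6 h the ST362 median was -0.46 without replicate 1 and -0.036 without replicate 2, and at 24 h it was -0.0902 without replicate 1 and -0.54 without replicate 2.

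**Figure D3:**
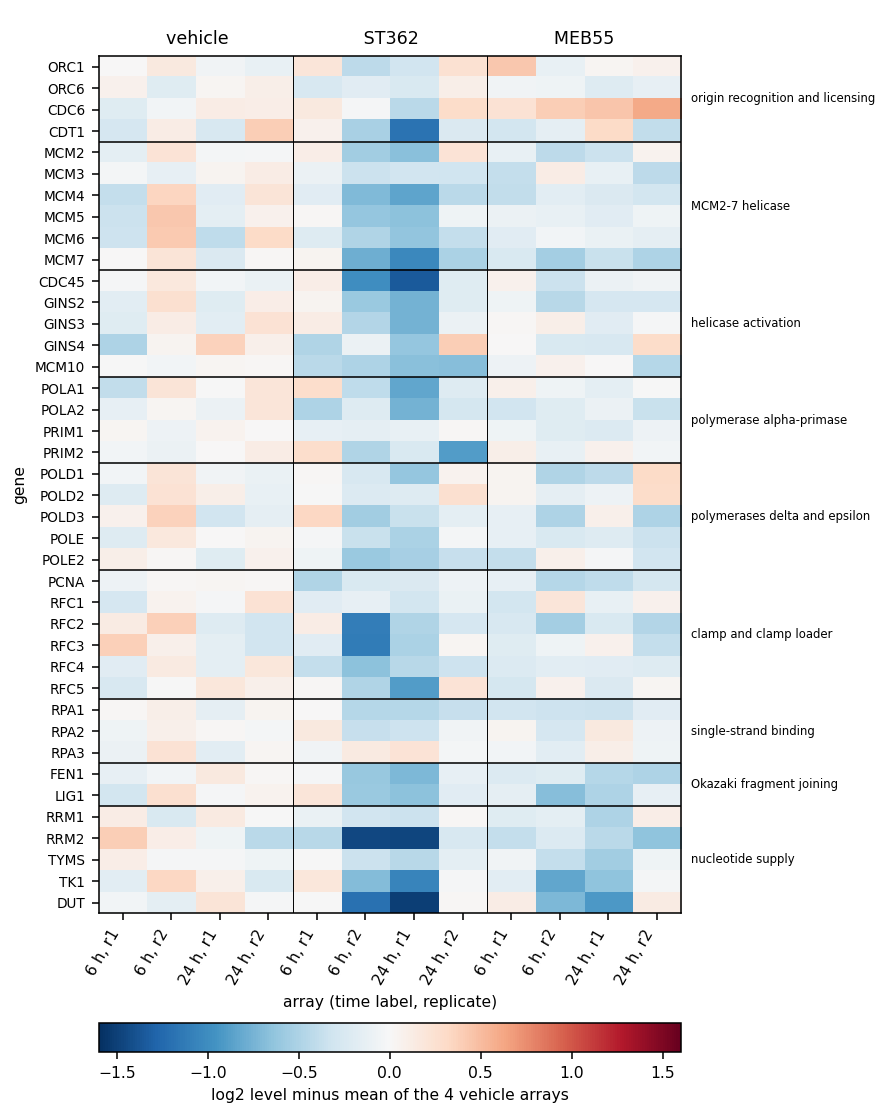
Log2 level of 40 replication genes (rows, by role) on 12 arrays (columns), minus each gene's mean over the 4 vehicle arrays. Blue is below and red above the vehicle mean. Columns ST362 6 h replicate 2 and 24 h replicate 1 are blue across nearly all roles, and the CDC6 row is red on the MEB55 arrays.

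Among the origin genes, CDC6 and CDT1, which load the helicase, had MEB55 differences of 0.42 and -0.13. CDC6 levels in vehicle were 5.17 and 5.32 at 6 h and 5.49 and 5.47 at 24 h (replicates 1 and 2, as in all values that follow, on the normalised log2 scale). With ST362 they were 5.52, 5.35, 4.94 and 5.66, and with MEB55 5.60, 5.75, 5.80 and 5.97. All 4 MEB55 arrays lay above all 4 vehicle arrays, while the ST362 arrays spanned the vehicle range. Such a separation upwards held for CDC6 alone among the 40 genes, which is 2.5%, a share below the 3.93% of all genes. The MEB55 difference was 0.42 (95% interval 0.09 to 0.75, adjusted p 0.320, limma), and that of ST362 was 0.0043 (-0.33 to 0.33). CDC6 was dim, with a vehicle mean of 5.36, and without background correction its MEB55 difference was 0.18, the lowest over 26 alternatives. CDT1 stood at 8.30, 8.69, 8.32 and 8.97 in vehicle, at 8.64, 8.05, 7.39 and 8.34 with ST362 and at 8.28, 8.43, 8.88 and 8.18 with MEB55. Its lowest array was ST362 24 h replicate 1, and the groups overlapped. ORC6, a subunit of the origin recognition complex, was 13.50, 13.23, 13.47 and 13.53 in vehicle, 13.18, 13.25, 13.19 and 13.53 with ST362 and 13.38, 13.37, 13.23 and 13.30 with MEB55, which overlap. ORC1, the large subunit of the complex, had differences of -0.07 with ST362 and 0.10 with MEB55.

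All 6 subunits of the MCM2-7 ring had differences below 0 with both analogues, from -0.57 (MCM7) to -0.22 (MCM2) with ST362 and from -0.41 (MCM7) to -0.12 (MCM5) with MEB55. MCM7 levels were 11.97, 12.18, 11.74 and 11.98 in vehicle, 12.01, 11.18, 10.93 and 11.46 with ST362 and 11.72, 11.42, 11.60 and 11.47 with MEB55. Its 4 MEB55 arrays lay below all vehicle arrays, whereas ST362 6 h replicate 1 lay within the vehicle range. The ST362 difference of MCM7 was -0.57 (-0.98 to -0.16, adjusted p 0.203, limma) and the MEB55 difference -0.41 (-0.82 to -0.0021, adjusted p 0.472). Without ST362 6 h replicate 1, MCM7 passed, with a difference of -0.77 (adjusted p 0.0395, against 0.488 at the highest over its alternatives). MCM4 stood at 9.44, 10.17, 9.64 and 10.03 in vehicle, 9.64, 9.12, 8.98 and 9.39 with ST362 and 9.43, 9.65, 9.59 and 9.53 with MEB55. On 3 of 4 ST362 arrays MCM4 was below all vehicle arrays, with a difference of -0.54 (-0.92 to -0.17, adjusted p 0.185).

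Among the genes that activate the helicase, MCM10 had the smallest p of the 40 genes with ST362. It was steady in vehicle at 8.66, 8.63, 8.70 and 8.69, and stood at 8.24, 8.18, 8.00 and 7.99 with ST362 and at 8.59, 8.73, 8.68 and 8.22 with MEB55. All 4 ST362 arrays lay below all vehicle arrays, and 1 MEB55 array (24 h replicate 2) reached the ST362 range. The ST362 difference was -0.57 (-0.84 to -0.30, 1.48-fold lower), with an adjusted p of 0.0611 in limma, which ranged from 0.0320 to 0.192 over 26 alternatives and was past the threshold in 8 of them. A dimmer MCM10 probe had -0.53 (adjusted p 0.0949). CDC45, the helicase co-factor, stood at 10.58, 10.76, 10.55 and 10.48 in vehicle, 10.70, 9.60, 9.24 and 10.39 with ST362 and 10.67, 10.25, 10.49 and 10.53 with MEB55. Here ST362 6 h replicate 2 and 24 h replicate 1 were below all other arrays and 6 h replicate 1 was within the vehicle range, and the difference was -0.61 (-1.14 to -0.08, adjusted p 0.304). The GINS subunits had ST362 differences of -0.37 (GINS2), -0.30 (GINS3) and -0.20 (GINS4).

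For polymerase alpha-primase, POLA2, the accessory subunit, stood at 8.74, 8.90, 8.77 and 9.06 in vehicle, 8.37, 8.67, 8.12 and 8.58 with ST362 and 8.56, 8.68, 8.77 and 8.52 with MEB55. All ST362 arrays lay below all vehicle arrays, with a difference of -0.43 (-0.72 to -0.14, adjusted p 0.170, limma), and the MEB55 difference was -0.24 (-0.53 to 0.06). PRIM2, the large primase subunit, was 5.63, 5.58, 5.68 and 5.79 in vehicle, 5.95, 5.18, 5.42 and 4.77 with ST362 and 5.76, 5.55, 5.74 and 5.63 with MEB55. Its ST362 arrays spanned the vehicle values on both sides, with the lowest on 24 h replicate 2, an array on which most other genes stayed near vehicle. POLA1, the catalytic subunit, and PRIM1, the small primase subunit, had ST362 differences of -0.29 and -0.10.

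The 5 genes of polymerases delta and epsilon had ST362 differences from -0.39 to -0.04. POLE2, a subunit of polymerase epsilon, stood at 9.41, 9.33, 9.12 and 9.38 in vehicle, 9.25, 8.72, 8.78 and 8.94 with ST362 and 8.94, 9.40, 9.30 and 9.01 with MEB55. Its ST362 difference of -0.39 (-0.70 to -0.08) had an adjusted p of 0.261 in limma. POLE, the catalytic subunit, was 6.41, 6.79, 6.63 and 6.66 in vehicle, 6.61, 6.27, 6.11 and 6.59 with ST362 and 6.49, 6.38, 6.42 and 6.28 with MEB55, and both analogues had a difference of -0.23. POLD2, a subunit of polymerase delta, was among the 3 genes with the highest ST362 differences, at 9.28, 9.73, 9.59 and 9.37 in vehicle, 9.48, 9.27, 9.29 and 9.75 with ST362 and 9.54, 9.34, 9.41 and 9.79 with MEB55. These values overlap in all 3 treatments.

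PCNA, the sliding clamp that holds the polymerase on DNA, was tight in vehicle at 11.56, 11.66, 11.67 and 11.66. It was 11.15, 11.39, 11.41 and 11.56 with ST362 and 11.51, 11.18, 11.23 and 11.35 with MEB55, so that both analogues lay wholly below vehicle, although the highest ST362 array and the lowest vehicle array share the rounded value of 11.56. The differences were -0.26 (-0.51 to -0.01, adjusted p 0.364, limma) with ST362 and -0.32 (-0.57 to -0.07, adjusted p 0.319) with MEB55. A much dimmer PCNA probe had -0.14 with ST362 (adjusted p 0.768, limma) and -0.29 with MEB55 (adjusted p 0.566). RFC4, a subunit of the clamp loader, stood at 10.00, 10.32, 10.02 and 10.36 in vehicle, 9.80, 9.52, 9.73 and 9.84 with ST362 and 9.96, 10.00, 9.99 and 9.96 with MEB55. The ST362 arrays were below every array of both other treatments, with a difference from vehicle of -0.45 (-0.71 to -0.19, adjusted p 0.109). A second RFC4 probe, slightly dimmer, had a smaller ST362 difference of -0.21 (adjusted p 0.5535, limma). For ST362 minus MEB55 it had -0.13, where the probe used had -0.26. RFC2 and RFC3 of the same loader had ST362 differences of -0.75 and -0.88 at 6 h and of -0.12 and -0.01 at 24 h, none of them past the test.

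The subunits of replication protein A, which coats single-stranded DNA, had ST362 differences from -0.32 (RPA1) to 0.07 (RPA3). RPA1, its large subunit, stood at 10.13, 10.21, 9.97 and 10.16 in vehicle, 10.13, 9.66, 9.66 and 9.75 with ST362 and 9.81, 9.79, 9.78 and 9.94 with MEB55. The MEB55 arrays were all below vehicle, with a difference of -0.29 (-0.56 to -0.02, adjusted p 0.423, limma), and 3 of 4 ST362 arrays were, with -0.32 (-0.59 to -0.05, adjusted p 0.282). Dimmer RPA1 probes had smaller differences. With ST362 they were -0.20 and -0.12 (adjusted p 0.726 and 0.868, limma). With MEB55 they were -0.15 and -0.15 (adjusted p 0.859 and 0.890). RPA2 was 9.96, 10.10, 10.05 and 10.00 in vehicle, 10.19, 9.65, 9.69 and 9.97 with ST362 and 10.07, 9.75, 10.18 and 9.95 with MEB55, values that overlap. RPA3, the small subunit, was 11.79, 12.11, 11.71 and 11.90 in vehicle, 11.82, 12.03, 12.09 and 11.85 with ST362 and 11.83, 11.71, 11.98 and 11.81 with MEB55. It was on no ST362 array below all vehicle arrays, also where nearly all other genes were.

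FEN1, the nuclease that trims the ends of Okazaki fragments, stood at 10.86, 10.94, 11.14 and 11.00 in vehicle, 10.96, 10.38, 10.26 and 10.86 with ST362 and 10.77, 10.78, 10.53 and 10.49 with MEB55. All 4 MEB55 arrays were below vehicle, and 3 of 4 ST362 arrays were, 1 of them at the same rounded value (10.86) as the lowest vehicle array. The differences were -0.34 (-0.68 to -0.0017, adjusted p 0.472, limma) with MEB55 and -0.37 (-0.71 to -0.03, adjusted p 0.335) with ST362. LIG1, the ligase that seals the fragments, was 7.24, 7.79, 7.51 and 7.59 in vehicle, 7.73, 6.94, 6.87 and 7.36 with ST362 and 7.39, 6.85, 7.04 and 7.40 with MEB55. On 2 arrays of each analogue, 6 h replicate 2 and 24 h replicate 1, it was below all vehicle arrays.

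In nucleotide supply, RRM2, the subunit of ribonucleotide reductase that limits its activity in S phase, had the lowest ST362 difference of the 40 genes. Its levels were 8.59, 8.30, 8.13 and 7.77 in vehicle, 7.75, 6.74, 6.73 and 7.93 with ST362 and 7.82, 7.97, 7.77 and 7.55 with MEB55. ST362 6 h replicate 2 and 24 h replicate 1 were the lowest of the 12 arrays, ST362 6 h replicate 1 was just below the lowest vehicle array, and 24 h replicate 2 was within the vehicle range. The difference was -0.91 (-1.46 to -0.35, 1.88-fold lower, adjusted p 0.134, limma) with ST362 and -0.42 (-0.98 to 0.14) with MEB55. DUT, the dUTPase that keeps uracil out of DNA, was 8.05, 7.93, 8.30 and 8.07 in vehicle, 8.08, 6.89, 6.58 and 8.11 with ST362 and 8.20, 7.37, 7.17 and 8.22 with MEB55. With both analogues 6 h replicate 2 and 24 h replicate 1 were below vehicle and the other arrays were within its range. A further DUT probe had -0.63 with ST362, and a dimmer one had 0.09, so the probes disagree. DUT and RFC1 were the exceptions among 15 genes with several tested probes, and in the other 13 all probes had the same sign with ST362. With MEB55 the probes differed in sign for ORC6, POLD2, RFC1, RFC2, RFC3 and DUT. TK1, TYMS and RRM1 had ST362 differences of -0.40, -0.24 and -0.18 and MEB55 differences of -0.42, -0.27 and -0.19.

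**Figure D4:**
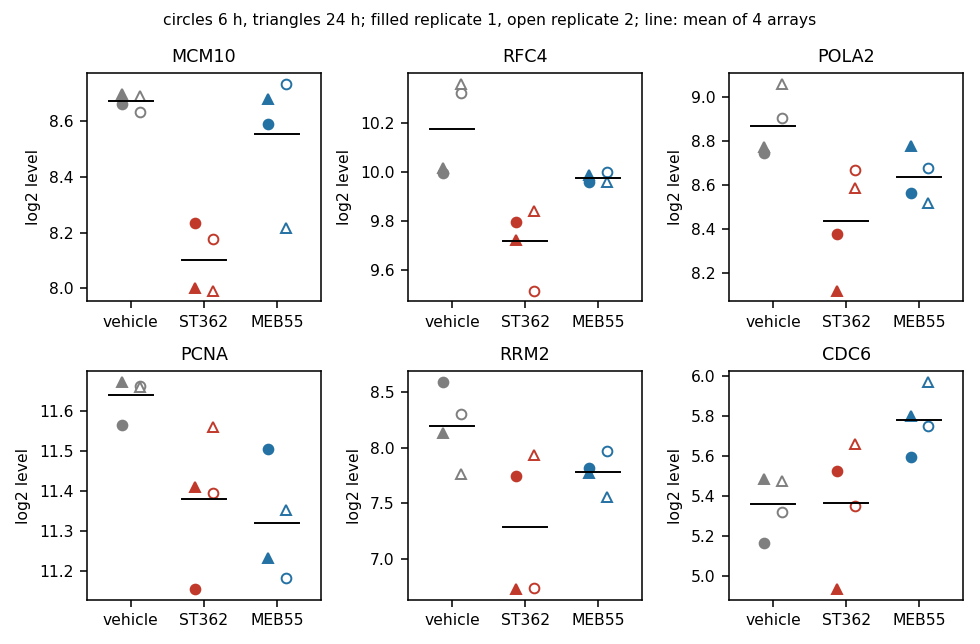
Normalised log2 level (y axis) of 6 genes on the 4 arrays of each treatment, with circles for 6 h, triangles for 24 h, filled symbols for replicate 1, open ones for replicate 2, and a line at the mean. MCM10, RFC4, POLA2 and PCNA with ST362 lie below all vehicle arrays, RRM2 with ST362 splits into 2 high and 2 low arrays, and CDC6 with MEB55 lies above vehicle.

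Counted by separation alone, all 4 ST362 arrays were below all 4 vehicle arrays for MCM10, POLA2, PCNA and RFC4, which is 10% of the 40 genes against 4.99% of all genes. For MEB55 the 4 genes were MCM7, PCNA, RPA1 and FEN1, also 10%, against 3.86%. PCNA was in both sets, and both comparisons use the same vehicle arrays.

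ST362 was compared with MEB55 directly at the same dose by mass, which is not the same molarity, and at the same times, a single pair of compounds. Over both times 31 of the 40 genes had a difference of ST362 minus MEB55 below 0, with a median of -0.15 and a range from -0.50 (CDC45) to 0.11 (RPA3). Of all 12290 tested genes, 6264 had a difference below 0, with a median of -0.004. None of the 40 genes passed in limma, where 0.0244% of all genes did. At an unadjusted p under 0.05, MCM10 and CDC6 were lower with ST362, which is 5% of the 40 genes against 3.78% of all genes. For MCM10 the difference was -0.45 (-0.72 to -0.18, adjusted p 0.375), for CDC6 -0.41 (-0.74 to -0.08, adjusted p 0.500), for RRM2 -0.49 (-1.05 to 0.07, adjusted p 0.682) and for CDC45 -0.50 (-1.03 to 0.03, adjusted p 0.658). The arrays of the 2 analogues did not overlap for MCM6, at 9.85, 9.58, 9.43 and 9.68 with ST362 and 9.88, 10.01, 9.95 and 9.91 with MEB55, nor for RFC4. These 2 genes are 5% of the 40, against 1.80% of all genes. The vehicle arrays of MCM6 stood at 9.73, 10.48, 9.65 and 10.37, around the MEB55 values, and ST362 6 h replicate 2 and 24 h replicate 1 lay below all of them. At the labelled times the median was -0.09 at 6 h and -0.20 at 24 h, with no gene of the array past the test at either time (0%). At an unadjusted p under 0.05, MCM10 was lower at 6 h (-0.46, adjusted p 1.00, limma), where 1.11% of all genes were, and MCM10 (-0.45) and CDC6 (-0.59) were lower at 24 h, where 1.74% were. The direction of both medians rested on single arrays, since without ST362 6 h replicate 2 the 6 h median was 0.11 and without ST362 24 h replicate 1 the 24 h median was 0.069.

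The change of each effect from 6 h to 24 h had a median of -0.10 over the 40 genes for ST362, with 26 below 0, and of 0.01 for MEB55, with 20 below 0. Over all 12290 tested genes the medians were -0.05 for ST362, with 6904 below 0, and -0.02 for MEB55, with 6418 below 0. No gene of the array passed for either analogue (0%), and none of the 40 genes had an unadjusted p under 0.05 in limma. At that threshold 1.03% of all genes were below 0 and 0.862% above 0 for ST362, and 0.529% and 0.448% for MEB55, so a count of 0 among 40 genes is close to what all genes show. Given the array pairs above, these values do not separate time from the difference between replicates.

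Genes around the machinery were read from lists chosen with earlier results of these data known. The genes named from each list are among those with the smallest unadjusted p with ST362. Of 38 other replication factors, 37 were tested, with a median ST362 difference of -0.30 and 14 lower at an unadjusted p under 0.05, against 7.73% of all genes. With MEB55 the median was -0.09 and 3 were lower, a share near the 6.31% of all genes. None passed the test. UHRF1, which recognises hemimethylated DNA behind the fork, had -0.59 with ST362 (adjusted p 0.0708, limma) and -0.53 with MEB55 (adjusted p 0.121). CHAF1A and CHAF1B, of the chromatin assembly factor that places histones on new DNA, had -0.56 and -0.46 with ST362 and -0.13 and -0.18 with MEB55. DONSON, which takes part in fork stability, had -0.51 and -0.46. Of 21 other nucleotide enzymes, 17 were tested, with medians of -0.12 and -0.02. RRM2B, the ribonucleotide reductase subunit used outside S phase and induced by p53, had 0.61 with ST362 (0.23 to 0.99, adjusted p 0.137) and 0.17 with MEB55, and its ST362 minus MEB55 difference was 0.45 (adjusted p 0.535). Its 4 ST362 arrays ran from 0.14 to 0.99 above the vehicle mean and its vehicle arrays from -0.13 to 0.14. Here the replicative subunit RRM2 and the alternative subunit RRM2B had differences of opposite sign, neither past the test. RRM2B had the highest ST362 difference of the 17 enzymes and RRM2 the lowest of the 40 replication genes, so both are extremes picked from these data.

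The medians of genes of G2 and mitosis were further below 0 than those of the replication genes with both analogues. Of 25 such genes, 24 were tested, all 24 had a difference below 0 with each analogue, and the medians were -0.81 with ST362 and -0.57 with MEB55. With ST362, 9 of them passed the test, all lower, against 0.765% of all genes, and with MEB55 none did, although 18 were lower at an unadjusted p under 0.05, against 6.31% of all genes. Among those that fell with ST362 were KIF20A, a kinesin of cytokinesis, by 1.39 on the log2 scale (adjusted p 0.0368, limma), CENPA, the centromeric histone, by 1.09 (adjusted p 0.0225), CCNA2, cyclin A2, by 1.01 (adjusted p 0.0368) and TPX2, a spindle assembly factor, by 0.88 (adjusted p 0.0341). On the 4 ST362 arrays the median of this list was -0.57, -1.05, -1.22 and -0.60, so that it was clearly below 0 also on 6 h replicate 1, where the median of the replication genes was -0.01. On the MEB55 arrays it was -0.74, -0.46, -0.41 and -0.70, lowest on the pair on which the replication genes were nearest to vehicle. Whether the 2 lists differ was not tested.

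**Figure D5:**
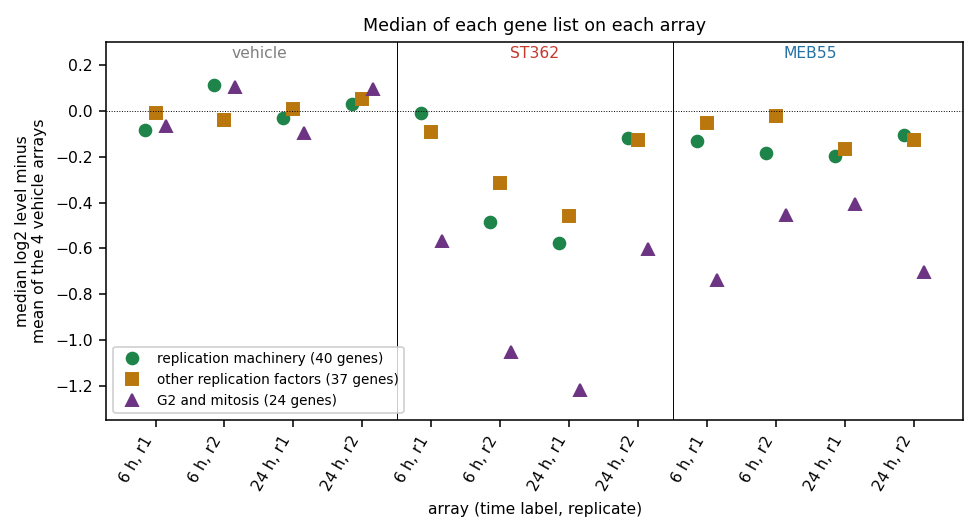
Median log2 level minus the mean of the 4 vehicle arrays (y axis) on each array (x axis) for the 40 replication genes, 37 other replication factors and 24 genes of G2 and mitosis. On ST362 6 h replicate 1 the replication genes stand at -0.01 and the G2 and mitosis genes at -0.57.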

How the data were processed

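RNA of 12 U2OS samples was measured on Illumina bead arrays, labelled as 6 groups of 2. The probe intensity values deposited by the authors are GenomeStudio bead signals without normalization. The detection p-values are also as deposited, computed against negative control probes. The authors' series values are the same intensities after quantile normalization (largest gap 0.364%), used as an alternative. The authors tested with Partek (a model of time and drug, unadjusted p under 0.05 and over 2-fold, signal of 100 or more).

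Signals were corrected and quantile normalized with neqc (offset 16) of limma 3.58.1 in R 4.3.3 and put on a log2 scale. Of 47313 probes, 30109 carried 1 symbol, 8 several and 17196 none. A probe entered the tests if any group had a detection p under 0.05 on both of its arrays, which 22186 probes met, and was tested with lmFit and eBayes, in a fit of 6 groups (median residual SD 0.23) and a fit of 3 treatments (0.221). Precision is limited by 2 arrays per group. The fit was tested on simulated data. The genes, the lists and the separate fit over both times were chosen with earlier results of these data known. Values of all 12 arrays are given for genes called, the 2 genes of each role with the smallest p, the 3 largest differences between analogues and the 3 highest with ST362. The values of MCM6 were added after they were seen. CTPS, ADSS and CDC2 were among the listed symbols without a probe of that name. Same-numbered ST362 and MEB55 arrays of a time deviated together (r 0.416 to 0.457 in 4 of 4 pairs), while vehicle with either analogue gave r of -0.312 to 0.242. Same-numbered analogue arrays of a time also shared a high or low HSPA6 level. Whether the numbers mark paired samples therefore cannot be told. Alternatives covered background, normalization, probe filter, probe choice, variance model, weights, replicate block, arrays in the fit, the study's cutoff and leaving out each array.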

Additional observations from a re-analysis of the deposited data

Results flagged for a closer look

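PCNA on vehicle 6 h replicate 1 stood far from the other 3 vehicle arrays, at -0.0756 from the vehicle mean where the others ran from 0.021 to 0.033, in 1 of 63 groups of 4 arrays checked in this way. Chance alone gives such a gap in about 1 in 20 groups. In MEB55 arrays, 3 genes lay on opposite sides of the vehicle mean of their own time at 6 h and at 24 h, on every array. GINS3 went from 0.089 to -0.13, a change of -0.22, POLA1 from 0.097 to -0.17, a change of -0.27, and RPA3 from -0.18 to 0.084, a change of 0.26. These were selected for their opposite signs, and the difference itself did not pass in the limma fit for any of the 40 genes. The share of all genes that meet this rule was not counted, so 3 of 40 cannot be judged against chance.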

How the results depend on the processing

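Across 28 alternatives, 538 of 553 counts and medians kept within 1.5 times or within the spread between arrays (SD 0.20 for 6 groups, 0.17 for 3 treatments), and of 1173 values of single genes 1141 kept their sign and side of the threshold, 9 came past it and 23 changed sign. ST362 minus vehicle over both times had 0 genes called lower, and 1 (MCM10) without background correction, with an offset of 50, with 75th percentile scaling, with the authors' series values, with the mean of all probes, with array weights or with only the arrays compared. Leaving out single arrays gave 0 to 1, the 1 being MCM7 without ST362 6 h replicate 1 and MCM10 without MEB55 24 h replicate 2. The study's cutoff called 1 gene (RRM2, lower) for ST362 at 6 h. Leaving out single arrays moved the ST362 median between -0.46 and -0.036 at 6 h and between -0.54 and -0.0902 at 24 h, and that of ST362 minus MEB55 between -0.31 and 0.11 at 6 h and between -0.37 and 0.069 at 24 h. The cause was not tested. Sign changes were of differences near 0 in the main fit, except for ORC6 and CDT1 with MEB55, at -0.11 and -0.13. With 75th percentile scaling ORC6 and RPA3 with MEB55 were 0.031 and 0.039. PRIM2 with MEB55 was -0.00507 with cyclic loess and -0.00505 with array weights. POLD2 with MEB55 was -0.13 with the mean of all probes, and CDC6 with ST362 was -0.035 with array weights. Without single arrays CDC6 with ST362 ran from -0.093 to 0.15 and POLD2 with ST362 from -0.15 to 0.034. The MEB55 differences ran from -0.062 to 0.10 for POLD2, from -0.029 to 0.042 for PRIM2, from -0.10 to 0.031 for RPA3, from -0.10 to 0.037 for RPA2 and from -0.28 to 0.0033 for CDT1.

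The replicate block left 0 genes called in all 9 comparisons and the median of ST362 minus vehicle over both times at -0.30. An alternative added after the data were seen fitted this block on the analogue arrays alone, with same-numbered arrays of a time as blocks. It gave MCM10 an adjusted p of 0.197 and CDC6 of 0.289 in limma for ST362 minus MEB55, and changed no call. Signal over background limits the dim genes, among which GINS1 was detected on 2 of 12 arrays. CDC6, also dim, had an MEB55 difference of 0.18 without background correction.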
